A study of Homo sapiens with 18 samples.

Results

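The metallothionein genes MT1E, MT1F, MT1G, MT1M, MT1X and MT2A were followed in primary fetal lung fibroblasts of the human line IMR90, in ribosome profiling (Ribo-seq) and mRNA-seq. They were picked by name, 6 of the 38716 gene symbols in the tables, and were also added together, because the copies are so alike that reads can be shared between them. The study compared 3 states with 3 replicates each, giving 18 libraries. Young cells were early-passage and proliferating, with no treatment named in the labels. Old cells were passaged to replicative exhaustion. ICM cells received inflachromene for 6 days, a compound that targets HMGB1 and HMGB2, which are chromatin proteins. No genetic change is named for any state. Replicates were separate cultures of this single line, harvested in cycloheximide, an inhibitor of translation elongation, and each lysate gave both libraries of its number. They therefore carry no variation between donors.

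Metallothioneins are small, cysteine-rich cytoplasmic proteins that bind zinc, copper and cadmium. Their transcription is raised by metals through MTF1, a zinc-sensing factor that binds metal response elements in the promoters, and by glucocorticoids and oxidative stress. MT2A is the main human isoform in many tissues, and the MT1 genes are a set of close copies beside it on the long arm of chromosome 16.

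In GENCODE v44 lifted to GRCh37, the build named in the submitters' processing notes, the 6 genes lay between chr16:56642496 and chr16:56718108 and had 3 exons each. MT2A was at chr16:56642496-56643409, MT1E at chr16:56659387-56661024, MT1M at chr16:56666571-56667893, MT1F at chr16:56691643-56694610 and MT1X at chr16:56716382-56718108, all on the plus strand. MT1G, at chr16:56700642-56701977, was the member on the minus strand. Among the 5 members with a coding sequence (CDS) of 186 bases, the 10 pairs were 88.7% to 92.5% identical and differed at 14 to 21 positions. MT1G has 189 coding bases. Of the 61 codons before the stop (62 in MT1G), 20 encode cysteine.

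The coding sequences of the 4 members with the most mRNA-seq reads are shown because they set which reads can be told apart. Sequences run 5′ to 3′ on the coding strand. Capitals mark bases that lie in at least 1 window of 29 bases found in no other metallothionein transcript, and lower case marks bases covered by shared windows alone.
MT2A: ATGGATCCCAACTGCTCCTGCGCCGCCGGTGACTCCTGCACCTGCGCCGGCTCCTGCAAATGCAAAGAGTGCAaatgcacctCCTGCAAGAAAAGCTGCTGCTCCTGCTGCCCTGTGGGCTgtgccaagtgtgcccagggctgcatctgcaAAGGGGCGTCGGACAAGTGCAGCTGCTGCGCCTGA
MT1X: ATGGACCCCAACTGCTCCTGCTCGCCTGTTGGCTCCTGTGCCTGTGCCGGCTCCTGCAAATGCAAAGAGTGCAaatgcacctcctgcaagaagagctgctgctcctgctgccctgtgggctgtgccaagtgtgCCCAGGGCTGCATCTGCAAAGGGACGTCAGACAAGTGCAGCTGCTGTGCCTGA
MT1G: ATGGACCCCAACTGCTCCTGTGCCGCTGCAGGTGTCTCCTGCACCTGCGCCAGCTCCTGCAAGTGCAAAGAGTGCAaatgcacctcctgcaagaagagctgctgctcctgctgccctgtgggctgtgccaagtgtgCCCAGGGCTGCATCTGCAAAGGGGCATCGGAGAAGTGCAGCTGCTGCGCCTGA
MT1E: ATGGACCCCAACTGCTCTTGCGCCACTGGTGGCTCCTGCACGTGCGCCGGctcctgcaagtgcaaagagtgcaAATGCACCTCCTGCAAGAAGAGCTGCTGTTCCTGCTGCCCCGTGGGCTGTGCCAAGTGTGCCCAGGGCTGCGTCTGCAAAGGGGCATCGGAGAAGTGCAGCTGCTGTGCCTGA
The lower-case stretch in the middle of MT1X and MT1G is the same in both genes. At 29 bases, about the length of a ribosome footprint, MT1G and MT1X shared 68 windows. The share of CDS windows found in no other metallothionein was 38.0% in MT2A, 41.6% in MT1G, 44.3% in MT1X, 46.2% in MT1E, 66.5% in MT1M and 69.0% in MT1F. At 50 bases the same shares were 73.7%, 56.4%, 53.3%, 78.1%, 89.1% and 83.2%. Among windows that start upstream of the start codon, each of both lengths was the gene's own within the family in MT2A, MT1X, MT1G and MT1E, in contrast to the CDS. The deposited 5′ untranslated region (5′ UTR) values of MT2A and MT1X were whole in all 9 mRNA-seq libraries. Those of MT1E held fractions of a read in 4 of 9. The CDS values of MT2A, MT1X, MT1G and MT1E held fractions in 8 of 9. How reads matching several copies were placed is not given in the sources used here.

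Promoters are shown for MT2A and MT1X, the members held by the RefSeq promoter table (GRCh38.p14). Each run is the 250 bases before the gene's start on the plus strand, at chr16:56608334-56608583 for MT2A and chr16:56682220-56682469 for MT1X. Capitals mark matches, on either strand, to the core of the metal response element, searched as TGCACNC and TGCGCNC. The matches in these runs do not overlap.
MT2A: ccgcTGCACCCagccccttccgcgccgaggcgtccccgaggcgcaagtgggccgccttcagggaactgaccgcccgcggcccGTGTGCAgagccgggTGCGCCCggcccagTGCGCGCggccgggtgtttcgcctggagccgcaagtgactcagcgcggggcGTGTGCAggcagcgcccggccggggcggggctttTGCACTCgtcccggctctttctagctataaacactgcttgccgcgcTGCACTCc
MT1X: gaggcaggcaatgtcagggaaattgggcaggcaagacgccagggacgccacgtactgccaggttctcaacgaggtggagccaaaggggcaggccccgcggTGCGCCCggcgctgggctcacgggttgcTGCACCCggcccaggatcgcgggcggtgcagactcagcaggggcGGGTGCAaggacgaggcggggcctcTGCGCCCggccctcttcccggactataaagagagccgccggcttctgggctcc
MT2A held 7 matches and MT1X 4. Of 35116 promoters of the same length in the table, 24.8% held at least 1 match and the median was 0. At least as many as in MT2A were found in 0.0313% and at least as many as in MT1X in 0.370%, the gene's own promoter included. Of other metallothioneins held by the table, MT1H had 8 matches, and MT1B and MT4 had 3 each. MT1E, MT1F, MT1G and MT1M had no entry. A match is a run of letters and not a measured binding site.

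**Figure D1:**
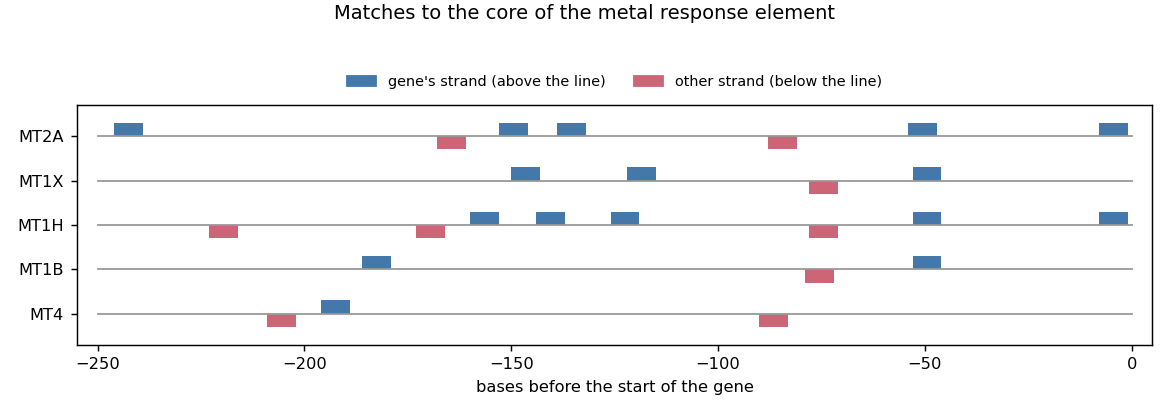
Positions of the matches to the metal response element core in the promoters of metallothionein genes held by the RefSeq table, in bases before the gene's start (x axis), with 1 line per gene and a mark per match. MT2A carries 7 matches, MT1X 4, MT1H 8, and MT1B and MT4 3 each.

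Reads in annotated coding genes numbered 7902427 to 14144455 per mRNA-seq library, and CDS reads numbered 46239 to 1718521 per Ribo-seq library. Levels are given as CPM, the reads of a gene scaled to a common library size, so they are relative to all other RNA, and in these bulk lysates fewer cells of a type and less RNA per cell cannot be told apart. The 8 fibroblast markers were all detected, at a summed 28712 to 32517 CPM in young, 27034 to 30391 in old and 12152 to 12632 in ICM mRNA-seq libraries. All 5 epithelial markers had reads, summing to 312 to 333 CPM in young, 242 to 265 in old and 44.7 to 50.6 in ICM libraries. Only 3 of the 5 averaged at least 5 CPM. Most of the sum was KRT18, at 266 to 284 CPM in young, 217 to 244 in old and 27.4 to 33.1 in ICM libraries. Of 3 endothelial markers 2 had reads (CDH5 was at 0), summing to at most 4.44 CPM, and of 3 leukocyte markers 2 had reads (CD3E was at 0), summing to 19.4 to 21.4 CPM in young, 31.6 to 34.7 in old and 53.1 to 65.2 in ICM libraries. The leukocyte sum was nearly all CD68, at 19.3 to 21.4 CPM in young, 31.5 to 34.6 in old and 53.0 to 65.2 in ICM libraries. PTPRC and CD3E had no CDS reads in Ribo-seq. The part of these marker differences in the results below was not tested. Of Ribo-seq reads in 361 genes higher and 524 lower by at least 4-fold in ICM mRNA, the 361 took 81.7% and 78.7% in ICM replicates 1 and 2 but 56.4% in replicate 3, against 15.0% to 21.5% in young. Only 34.4% of the reads of young replicate 1 and 15.0% of those of old replicate 2 lay in a CDS. The Ribo-seq tests of the members and their summed levels are therefore also given without these 3 libraries.

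In mRNA-seq the metallothioneins were about 2.3 times as abundant in old as in young cells, and ICM cells were near the young level. The 6 members summed to 673, 584 and 660 CPM in the young replicates, 1554, 1416 and 1440 in the old ones and 602, 548 and 645 in the ICM ones. Every old library lay above all young and all ICM libraries, and young and ICM libraries overlapped. The means were 639 ± 48.0 (SD, n = 3) in young, 1470 ± 74.0 (SD, n = 3) in old and 598 ± 48.9 CPM (SD, n = 3) in ICM, a ratio of means of 2.30 for old to young and 2.46 for old to ICM. No p-value is given for the sum. MT2A supplied 83.9% to 89.1% of the members' reads in each library, so the sum follows it closely.

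**Figure D2:**
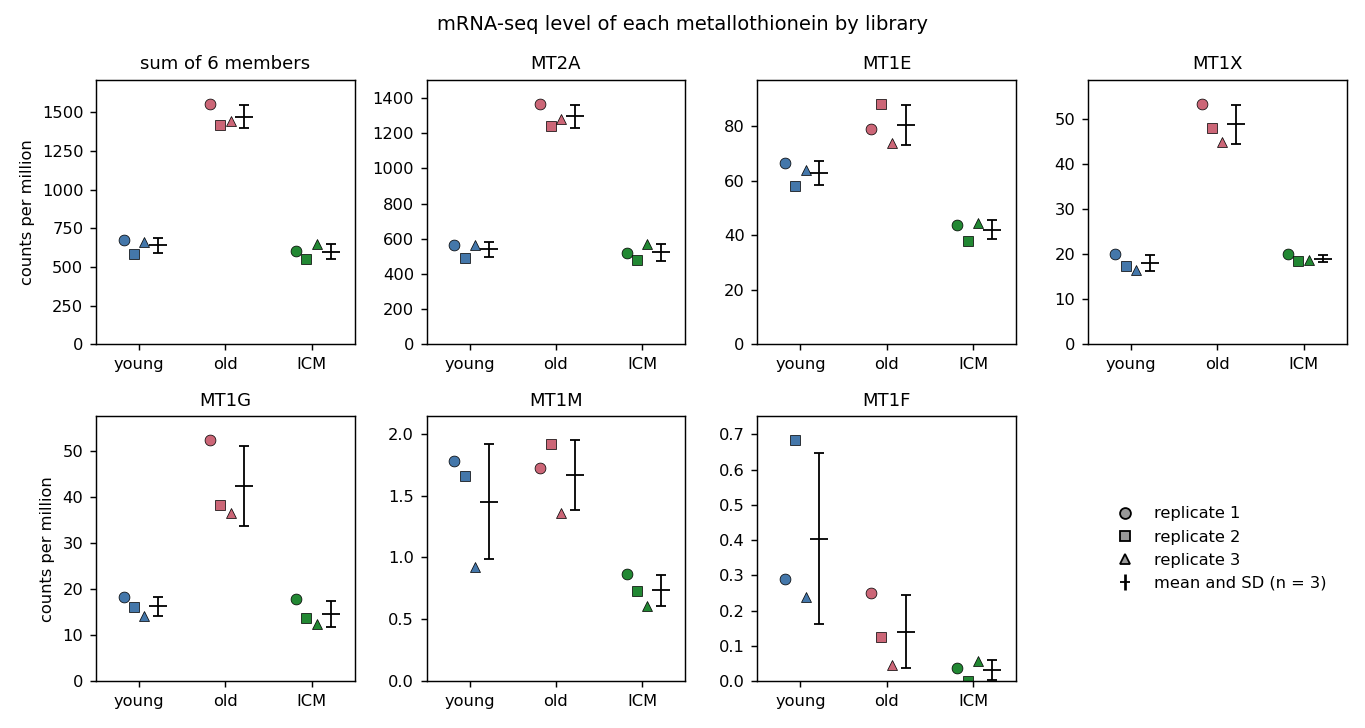
mRNA-seq level of each member and of their sum in CPM (y axis) by state (x axis), with 1 point per library and the mean and SD of 3 replicates. Old libraries lie above young and ICM libraries for MT2A, MT1X, MT1G, MT1E and the sum.

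Per kilobase of CDS, MT2A led the mRNA levels in all 3 states. It reached 667 ± 149 CPM per kb in young, 1743 ± 205 in old and 582 ± 61.0 in ICM cells (SD, n = 3). MT1G, MT1E and MT1X followed in young cells at 85.4 ± 11.04, 68.2 ± 16.0 and 65.8 ± 11.5 CPM per kb, with overlapping replicates. The old libraries gave MT1G 223 ± 45.8 and MT1X 189 ± 25.9 CPM per kb, which overlapped, and MT1E 104 ± 15.9, which lay below both. MT1M had 5.94 ± 1.79 CPM per kb in young, 7.77 ± 1.07 in old and 2.99 ± 0.514 in ICM cells. MT1F was at the bottom in every state, with 0.944 ± 0.625 CPM per kb in young cells.

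For the question of what replicative exhaustion changes, 5 members entered the test, MT1F having too few reads. Of these, 4 rose in old against young cells and none fell, where 32.4% of the 13173 tested genes were called higher and 66.1% were called in either direction. Their median log2 change was 1.26, beside -0.01 over all tested genes. Calls are edgeR adjusted p-values under 0.05, and changes are log2 with their standard errors.

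MT2A measured 567, 490 and 564 CPM in young, 1368, 1239 and 1284 in old and 520, 477 and 569 in ICM cells. The old libraries stood apart from both other groups, which overlapped. In old against young cells MT2A rose 2.40-fold (log2 change 1.26, SE 0.07, edgeR adjusted p = 1.53e-12). MT1X, a copy of the MT1 group, measured 19.9, 17.5 and 16.5 CPM in young, 53.4, 48.1 and 45.0 in old and 19.9, 18.4 and 18.7 in ICM cells. It had the same order, and rose 2.73-fold from young to old (log2 change 1.45, SE 0.09, edgeR adjusted p = 4.76e-12).

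MT1G measured 18.3, 16.0 and 14.2 CPM in young, 52.2, 38.3 and 36.4 in old and 17.7, 13.6 and 12.4 in ICM cells. Old replicate 1 was the highest library, and the lowest old library was still above every other one. The rise from young to old was 2.61-fold (log2 change 1.39, SE 0.13, edgeR adjusted p = 6.81e-09). Of MT1G reads 99.8% lay in its CDS. There 47 of 140 windows of 50 bases, about the length of these reads, are those of MT1X. MT2A shares windows there too, and the MT1G CDS values held fractions of a read in 8 of 9 libraries. The MT1G values are therefore not fully separate from those of MT1X and MT2A. How much of the MT1G rise came from reads of other copies was not tested.

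MT1E was the member with the smallest called rise. It measured 66.4, 58.2 and 64.1 CPM in young, 79.1, 88.3 and 73.8 in old and 43.8, 38.1 and 44.5 in ICM cells. The 3 states did not overlap, with ICM lowest and old highest. The old level was 1.28 times the young one (log2 change 0.36, SE 0.08, edgeR adjusted p = 0.000371). Counted in its 5′ UTR alone the change was 0.27 and no longer called (edgeR adjusted p = 0.160). MT1E's share of the members' reads was 9.72% to 9.95% in young and 5.09% to 6.24% in old libraries.

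MT1M and MT1F, the members with the fewest reads, were not called or not tested in this comparison. MT1M measured 1.78, 1.66 and 0.921 CPM in young, 1.72, 1.92 and 1.36 in old and 0.864, 0.725 and 0.608 in ICM cells. Young and old libraries overlapped, and the old against young change of 0.24 (SE 0.28) was not called (edgeR adjusted p = 0.462). MT1F had 18.3 reads over all 9 libraries, of which 2.33, 7.83 and 2.5 were in young, 2.33, 1.67 and 0.500 in old and 0.500, 0 and 0.667 in ICM cells, below the filter on low counts. With no filter its ICM against young change was called (log2 change -3.39, SE 1.08, edgeR adjusted p = 0.00459), on these few reads.

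For the question of whether ICM treatment does the same, ICM was set against the same young libraries, so the comparisons share their controls. Of the 5 members tested, none rose and 2 fell in ICM against young cells, where 34.9% of tested genes were called higher, 36.1% lower and 71.0% in either direction. The median log2 change was -0.13, beside -0.01 over all tested genes. MT2A changed by -0.05 (SE 0.07, edgeR adjusted p = 0.559), MT1X by 0.09 (SE 0.10, edgeR adjusted p = 0.413) and MT1G by -0.13 (SE 0.15, edgeR adjusted p = 0.461), none of them called. MT1E fell by 0.57 (SE 0.08, edgeR adjusted p = 2.00e-06) and MT1M by 0.92 (SE 0.33, edgeR adjusted p = 0.0165) on the log2 scale. The MT1M call rests on 7.17 to 19.0 reads a library and was lost with DESeq2 (adjusted p = 0.0622) and without ICM replicate 3 (edgeR adjusted p = 0.0662), young replicate 1 (0.0615) or young replicate 2 (0.0875).

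Set directly against old cells, ICM cells had lower levels of each of the 5 tested members. All 5 fell, where 32.6% of tested genes were called lower and 63.3% in either direction, with a median log2 change of -1.31 beside -0.01 over all tested genes. MT1G was 2.86-fold lower (log2 change -1.52, SE 0.13, edgeR adjusted p = 1.16e-09). MT1X was 2.56-fold lower (log2 change -1.35, SE 0.09, edgeR adjusted p = 5.73e-12) and MT2A 2.48-fold lower (log2 change -1.31, SE 0.07, edgeR adjusted p = 5.49e-13). MT1M was 2.24-fold lower (log2 change -1.16, SE 0.31, edgeR adjusted p = 0.00244) and MT1E 1.91-fold lower (log2 change -0.93, SE 0.08, edgeR adjusted p = 9.14e-10).

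**Figure D3:**
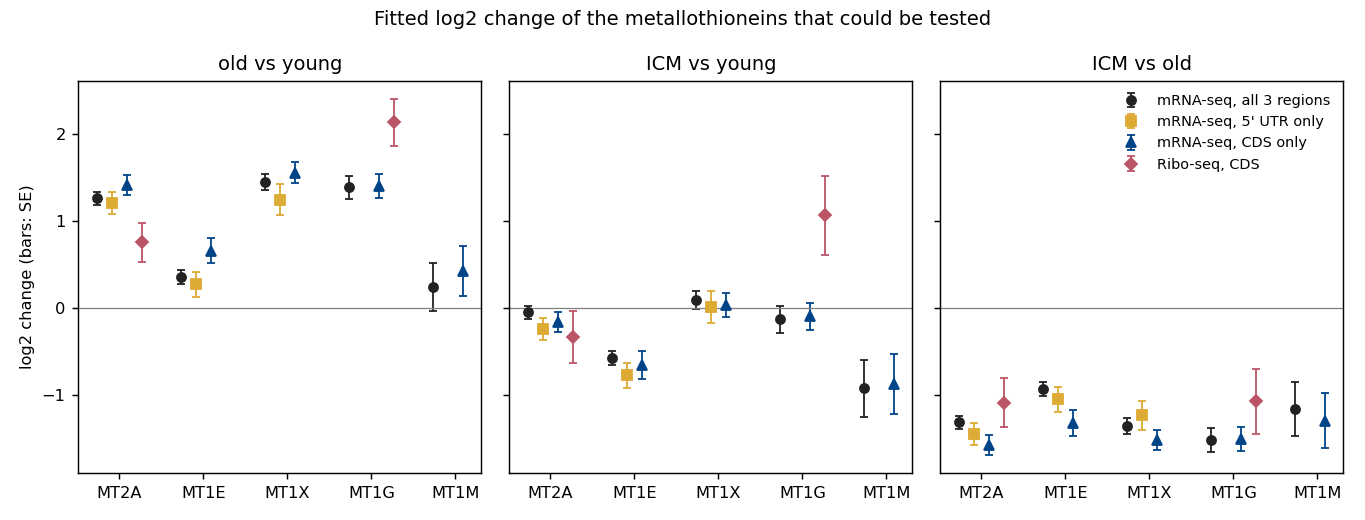
Log2 change (y axis) of each tested member (x axis), with a panel for each of the 3 comparisons and bars of 1 standard error. Series are mRNA-seq over all 3 regions, mRNA-seq in the 5′ UTR alone, mRNA-seq in the CDS alone and Ribo-seq in the CDS. In mRNA-seq over all 3 regions, MT2A, MT1X and MT1G lie between 1.26 and 1.45 in old against young cells. In ICM against young cells they lie between -0.13 and 0.09.

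Where along the transcript the mRNA-seq reads fell differed between members. Of 78173 MT2A reads, 75.4% lay in the 5′ UTR of 72 bases, 23.5% in the CDS and 1.096% in the 3′ UTR. For the median gene these shares were 7.16%, 65.1% and 23.6%, and only 21 of 9466 genes with enough reads had a 5′ UTR share as high as that of MT2A. MT1E had 77.9% of 6116 reads in the 5′ UTR, which spans 377 of 704 bases in the transcript model used, and MT1X 30.3% of 2851. The MT1E model was the longest transcript with a CDS of metallothionein length, because the canonical one has a longer CDS. MT1G had 0.250% of its 2404 reads in the 5′ UTR and none in the 3′ UTR.

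The 5′ UTR reads, where the windows of MT2A and MT1X are not shared within the family, gave the same order of states for MT2A and MT1X. In them MT2A averaged 410 ± 50.6 CPM in young, 957 ± 55.4 in old and 409 ± 52.7 in ICM cells (SD, n = 3). MT2A rose by 1.20 on the log2 scale from young to old (edgeR adjusted p = 4.43e-07) and MT1X by 1.25 (edgeR adjusted p = 1.98e-05). The test on 5′ UTR reads was added after the data were seen. In CDS reads alone the old against young log2 changes were 1.42 for MT2A, 1.55 for MT1X, 1.41 for MT1G, 0.66 for MT1E and 0.43 for MT1M.

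**Figure D4:**
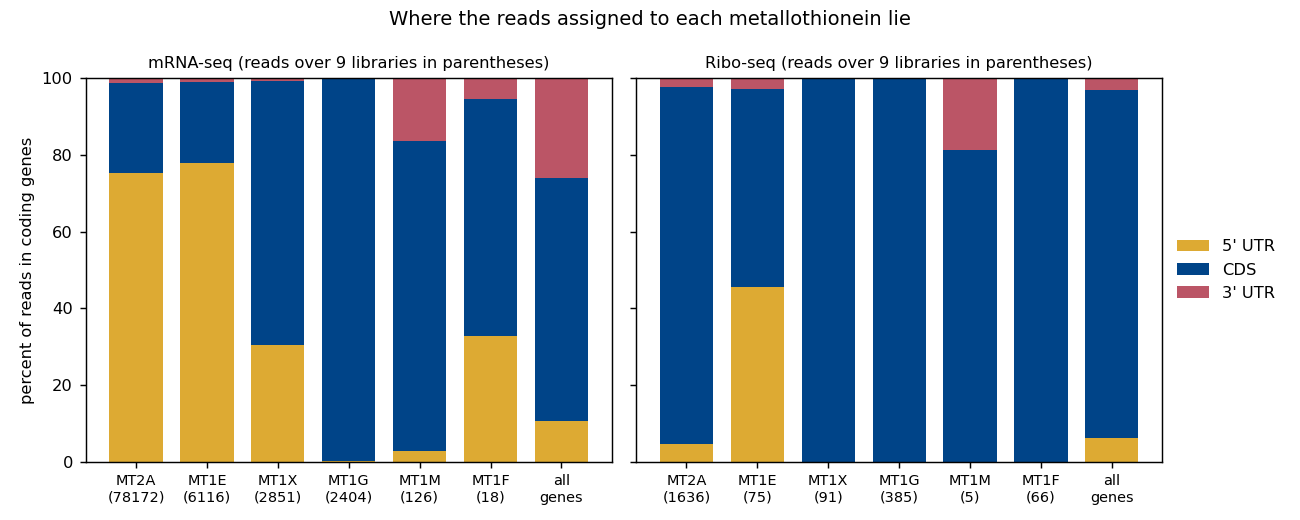
Share of each member's reads in percent (y axis) that lay in the 5′ UTR, CDS and 3′ UTR, for mRNA-seq and Ribo-seq. Reads are summed over the 9 libraries of each assay, with the reads of all genes pooled for comparison. MT2A and MT1E have 75.4% and 77.9% of their mRNA-seq reads in the 5′ UTR, and MT1G has 0.250%.

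Ribosome footprints in the CDS were also most abundant in old cells, with far fewer reads behind them. The 6 members summed to 498, 329 and 315 CPM in young, 691, 617 and 589 in old and 240, 277 and 559 in ICM Ribo-seq libraries. All old libraries were above all others, and ICM replicate 3, 1 of the 3 libraries that stood apart, was above every young one. Mean levels were 381 ± 102 CPM in young, 633 ± 52.6 in old and 359 ± 175 in ICM cells (SD, n = 3), a ratio of 1.66 for old to young and 1.76 for old to ICM. Without the 3 libraries, an alternative chosen after seeing the data, the means were 322 ± 9.86 CPM in young, 640 ± 71.9 in old and 259 ± 26.6 in ICM cells (SD, n = 2), and the ratios 1.99 and 2.48.

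**Figure D5:**
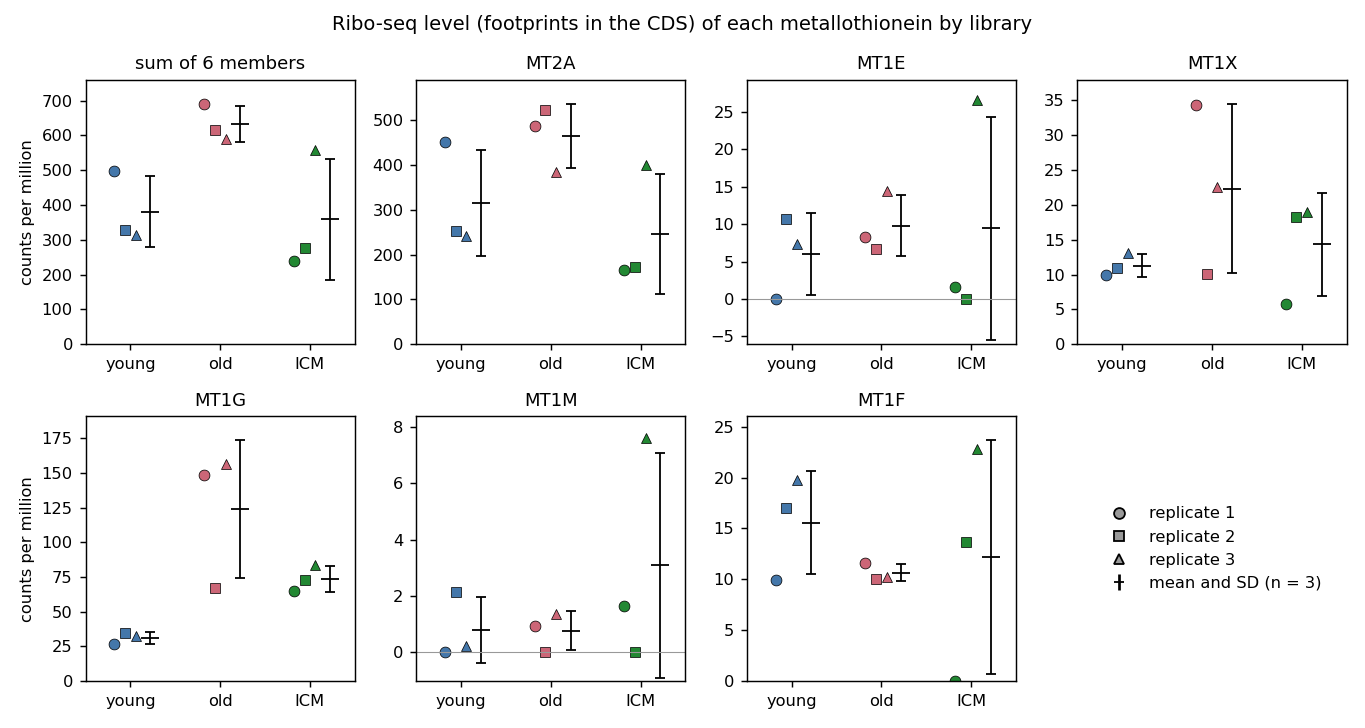
Ribo-seq CDS level of each member and of their sum in CPM (y axis) by state (x axis), with 1 point per library and the mean and SD of 3 replicates. The summed level is higher in all old libraries than in any young or ICM library, and ICM replicate 3 is the highest ICM library.

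MT2A footprints gave 452, 254 and 242 CPM in young, 487, 523 and 384 in old and 166, 173 and 400 in ICM libraries. The groups overlapped, since young replicate 1 and ICM replicate 3 were both above the lowest old library. Behind these values stood 22.8, 159 and 380 reads in young, 685, 26.0 and 187 in old and 33.7, 12.7 and 17.5 in ICM libraries. MT1G footprints gave 26.4, 34.4 and 32.6 CPM in young, 149, 67.1 and 156 in old and 64.9, 72.8 and 83.7 in ICM libraries. Every old and every ICM library was above every young one, while old and ICM libraries overlapped. Only 13.2, 5.33 and 3.67 reads stood behind the ICM values of MT1G, and 1.33 behind that of young replicate 1.

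MT2A and MT1G were the 2 members with enough footprints to test. Their CDS footprints are not fully separate, since each shares windows of 29 bases with the other. The deposited CDS footprint values held fractions of a read in 7 of 9 libraries for MT2A and 9 of 9 for MT1G. Calls for the 2 are therefore not independent. In old against young cells both rose, where 19.3% of the 4643 tested genes were called higher and 36.3% in either direction. The MT1G change was 2.14 (SE 0.27, edgeR adjusted p = 1.05e-07) and the MT2A change 0.75 (SE 0.22, edgeR adjusted p = 0.00709). Without the 3 libraries that stood apart they were 2.19 (edgeR adjusted p = 1.14e-08) and 0.86 (edgeR adjusted p = 0.000108), and MT1X, testable there, rose by 1.31 (edgeR adjusted p = 0.0207). The MT2A call was lost with DESeq2 (adjusted p = 0.233) and without old replicate 1 (edgeR adjusted p = 0.167), young replicate 2 (0.217) or young replicate 3 (0.280).

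In ICM against young cells neither passed the test in Ribo-seq, where 26.6% of genes were called. MT1G changed by 1.06 (SE 0.45, edgeR adjusted p = 0.0760), with an unadjusted p of 0.0239, and MT2A by -0.33 (SE 0.30, edgeR adjusted p = 0.442). DESeq2 called neither as well. Without the 3 libraries the MT1G change was 0.87 (edgeR adjusted p = 0.187) and the MT2A change -0.63 (edgeR adjusted p = 0.0824). Against old cells both fell in ICM cells, where 7.62% of genes were called lower and 13.4% in either direction. MT2A fell by 1.09 (SE 0.28, edgeR adjusted p = 0.00707) and MT1G by 1.07 (SE 0.37, edgeR adjusted p = 0.0493). Without the 3 libraries these changes were -1.48 (edgeR adjusted p = 3.67e-05) and -1.32 (edgeR adjusted p = 0.0175). With DESeq2 neither was called, at adjusted p = 0.0784 for MT2A and 0.437 for MT1G. Without ICM replicate 1 or old replicate 1 the MT2A call was lost (edgeR adjusted p = 0.105 and 0.0781), and the MT1G call was lost without any single library but ICM replicate 3 or old replicate 2, at edgeR adjusted p = 0.0556 without young replicate 1 to 0.282 without old replicate 1.

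The other members had 4.33 to 91.0 CDS footprints over all 9 libraries. MT1X gave 9.90, 10.9 and 13.0 CPM in young, 34.4, 10.1 and 22.6 in old and 5.75, 18.2 and 19.0 in ICM libraries, with overlap in every comparison. Per kilobase of CDS, MT2A led the footprints too, at 1698 ± 636 CPM per kb in young, 2499 ± 387 in old and 1323 ± 715 in ICM libraries (SD, n = 3). MT1G came next, at 165 ± 22.1, 656 ± 262 and 390 ± 50.1 CPM per kb. MT1F, the lowest member in mRNA, had 83.7 ± 27.3 CPM per kb of footprints in young cells, overlapping the 60.7 ± 8.61 of MT1X. It drew 66.0 footprints against 11.3 mRNA-seq CDS reads, and 69.0% of its 29-base CDS windows are found in no other metallothionein. Of these footprints 31.0 were in young replicate 3 and 16.3 in old replicate 1, and each ICM library held 0 to 1. From which copies the footprints came was not tested.

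Footprints relative to mRNA, tested as an interaction over the 18 libraries with the lysate as a block, passed the test for neither MT2A nor MT1G. Called genes made up 1.43% of 4618 in old against young cells, 2.38% in ICM against young cells and 0.346% in ICM against old cells. The MT2A ratio changed by -0.56 (SE 0.21, edgeR adjusted p = 0.256) in old against young cells, with an unadjusted p of 0.0139, the single one of the 6 tests under 0.05 before adjustment. It changed by -0.29 (SE 0.29, edgeR adjusted p = 0.672) in ICM against young cells. For MT1G the changes were 0.57 (SE 0.34, edgeR adjusted p = 0.500) and 1.01 (SE 0.51, edgeR adjusted p = 0.329). In ICM against old cells MT2A changed by 0.27 (SE 0.29, edgeR adjusted p = 0.800) and MT1G by 0.44 (SE 0.46, edgeR adjusted p = 0.793). DESeq2 called none of the 6 either. Without the 3 lysates the MT2A changes were -0.49 in old against young, -0.57 in ICM against young and -0.081 in ICM against old cells, and those of MT1G 0.59, 0.72 and 0.13, none called (edgeR adjusted p = 0.147 to 0.935). The summed footprint CPM divided by the summed mRNA CPM was 0.740, 0.562 and 0.477 in young, 0.445, 0.436 and 0.409 in old and 0.398, 0.506 and 0.867 in ICM lysates.

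Among genes that regulate metallothioneins or answer to metals beside them, MTF1, SLC30A1 and NR3C1 did not share the order of MT2A. MTF1, the metal-sensing activator, measured 24.1, 24.4 and 22.6 CPM in young, 27.6, 23.2 and 26.96 in old and 32.4, 35.0 and 29.9 in ICM mRNA-seq libraries. It rose in ICM against young cells by 0.45 (SE 0.09, edgeR adjusted p = 0.000119) and was not called in old against young cells, at 0.12 (SE 0.09, edgeR adjusted p = 0.254). SLC30A1, the zinc exporter of the plasma membrane and itself a textbook MTF1 target, measured 32.0, 29.5 and 41.7 CPM in young, 42.1, 45.5 and 55.2 in old and 87.7, 82.6 and 94.5 in ICM libraries. The 3 states did not overlap, and ICM was highest, unlike for MT2A. SLC30A1 rose by 0.47 (SE 0.11, edgeR adjusted p = 0.000733) from young to old and by 1.36 (SE 0.10, edgeR adjusted p = 9.35e-11) from young to ICM. Its footprints rose too in ICM against young cells with all libraries used, by 1.57 (SE 0.31, edgeR adjusted p = 0.000173). This rested on 5, 42 and 92 reads in young and 41, 14 and 6 in ICM libraries. NR3C1, the glucocorticoid receptor, fell by 0.30 (SE 0.07, edgeR adjusted p = 0.00123) in old and by 0.17 (SE 0.07, edgeR adjusted p = 0.0421) in ICM against young cells.

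Of the 6 zinc exporters tested in mRNA-seq, 4 rose and none fell in old against young cells, and 4 rose and 1 fell in ICM against young cells. Of all tested genes 32.4% were called higher and 33.7% lower in the first comparison, and 34.9% and 36.1% in the second. The exporters' median log2 changes were 0.29 and 0.71, beside -0.01 over all tested genes in each comparison. SLC30A4, an exporter into vesicles, rose by 1.02 (SE 0.11, edgeR adjusted p = 3.17e-08) in old and by 0.95 (SE 0.11, edgeR adjusted p = 6.29e-08) in ICM cells. Among 11 zinc importers, 8 rose and 1 fell in old cells (median 0.42), and 6 rose and 1 fell in ICM cells (median 0.34), both against young. SLC39A11 rose by 1.499 (SE 0.08, edgeR adjusted p = 9.60e-14) and SLC39A9 by 1.12 (SE 0.06, edgeR adjusted p = 5.48e-13) with ICM. In old cells they rose by 0.64 (SE 0.08, edgeR adjusted p = 5.43e-07) and 0.45 (SE 0.07, edgeR adjusted p = 2.80e-06). Of 12 copper-handling genes, 8 rose in old cells (median 0.30) and 11 in ICM cells (median 0.61), and none fell in either. SLC31A2, a copper transporter, rose by 1.84 (SE 0.13, edgeR adjusted p = 4.02e-11) in old and by 1.35 (SE 0.14, edgeR adjusted p = 9.98e-09) in ICM cells. ATP7A, the copper-exporting ATPase, rose by 1.11 (SE 0.08, edgeR adjusted p = 1.21e-11) in ICM cells. In ICM against old cells the counts higher and lower were 3 and 1 for exporters, 4 and 2 for importers and 6 and 2 for copper genes, where 30.7% of all tested genes were called higher and 32.6% lower.

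Glucocorticoid-responsive genes moved in both directions, in old against young cells at shares near those of all tested genes given above. Of 11 tested, 4 rose and 5 fell in old against young cells (median -0.26), 4 rose and 7 fell in ICM against young cells (median -0.41), and 4 rose and 4 fell in ICM against old cells (median 0.01). FKBP5, a co-chaperone of the receptor, measured 38.2, 36.6 and 37.7 CPM in young, 8.67, 7.67 and 7.66 in old and 27.6, 28.7 and 23.8 in ICM cells. It fell by 2.23 (SE 0.10, edgeR adjusted p = 2.02e-14) in old against young cells. TSC22D3, which encodes the glucocorticoid-induced leucine zipper, measured 19.2, 20.8 and 18.9 CPM in young, 34.3, 34.6 and 29.9 in old and 14.4, 14.6 and 15.6 in ICM cells, and so was highest in old cells like MT2A. It rose by 0.74 (SE 0.09, edgeR adjusted p = 1.36e-07) from young to old and fell by 1.15 (SE 0.09, edgeR adjusted p = 1.43e-10) from old to ICM. SGK1, a kinase gene induced by the receptor, rose by 1.13 (SE 0.09, edgeR adjusted p = 1.98e-10) from young to old and fell by 0.51 (SE 0.08, edgeR adjusted p = 1.51e-05) from old to ICM. HSD11B1, which regenerates active cortisol, measured 3.48, 3.14 and 4.00 CPM in young, 0.645, 0.667 and 0.278 in old and 99.98, 107 and 95.8 in ICM cells. It fell by 2.69 (SE 0.29, edgeR adjusted p = 2.80e-08) in old and rose by 4.83 (SE 0.11, edgeR adjusted p = 4.48e-20) in ICM against young cells.

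Among the 10806 genes averaging 5 CPM or more, the 5 whose centred log2 profiles over the 9 mRNA-seq libraries lay nearest to that of the summed members were SAMD12, TRNP1, DAP, PPME1 and YPEL2. Their root mean square differences from it were 0.0698 to 0.0987, where the median gene had 0.663. DAP measured 533, 489 and 466 CPM in young, 1147, 1129 and 1128 in old and 487, 489 and 499 in ICM cells. MT2A itself lay at 0.0286, MT1X at 0.138, MT1G at 0.221 and MT1E at 0.358.

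The neighbouring copy MT1A, which is no member, was also highest in old cells. MT1A measured 1.03, 1.35 and 1.38 CPM in young, 3.39, 3.08 and 2.64 in old and 1.102, 0.863 and 0.820 in ICM cells, with old libraries above all others. It rose by 1.26 (SE 0.24, edgeR adjusted p = 8.64e-05) from young to old and fell by 1.67 (SE 0.24, edgeR adjusted p = 3.29e-06) from old to ICM. MT1H, with 3.50, 2.67 and 3.00 reads in young, 8.67, 10.3 and 8.17 in old and 4.00, 2.33 and 4.83 in ICM libraries, was too low to test, and its old libraries were the highest. MT3, the form known from brain, had 0, 2 and 0 reads in young, 5, 10 and 9 in old and 1, 0 and 1 in ICM libraries.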

How the data were processed

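The authors deposited estimated counts per gene for each library, split into 5′ UTR, CDS, 3′ UTR and pseudogene columns, with fractions of a read. The submitters' notes name STAR 2.6.0c, featureCounts, DESeq2, deepTools and GRCh37, and the handling of reads matching several places is not given in the sources used here. Counts were rounded to whole numbers for the tests. mRNA-seq used the 3 regions summed and Ribo-seq the CDS. Each assay's 9 libraries were fitted together with edgeR 4.0.16 (R 4.3.3, TMM scaling, filterByExpr, quasi-likelihood test), with Benjamini-Hochberg adjustment over all tested genes and a threshold of 0.05. Standard errors are the absolute log2 change divided by the square root of F. Footprints relative to mRNA were tested as the interaction of assay and state, with lysate as a block because the methods state that both libraries came from it. CPM are relative to the TMM-scaled library size, and the precision of a value is limited by its reads. The code was tested on simulated data.

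Members and gene lists were chosen with earlier results of these data known. All members, other metallothioneins with at least 10 mRNA-seq reads, MTF1, SLC30A1, NR3C1 and the 5 nearest profiles were named, with at most 4 called genes of each other list per comparison, at a mean of at least 5 CPM and an absolute log2 change of at least 1, of which some are given. Genes of 1 list are not reported here. Profiles were compared on log2 CPM with a prior count of 2. Alternatives were DESeq2 1.42.0, other scaling, filters, regions, sample sets, thinning, a replicate block and leaving out libraries.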

Additional observations from a re-analysis of the deposited data

Results flagged for a closer look

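The pseudogene column, which no comparison above uses, held reads for MT1L, a metallothionein copy listed there and not in the coding columns. Its mRNA-seq counts were 72.0, 94.7 and 92.7 in young, 293, 435 and 294 in old and 93.8, 61.3 and 83.0 in ICM libraries. The mean was 8.67 ± 0.367 CPM in young, 30.3 ± 2.72 in old and 6.59 ± 0.790 in ICM libraries (SD, n = 3), so that every old library was above every young one. In Ribo-seq the MT1L means were 10.02 ± 4.96 CPM in young, 34.35 ± 6.88 in old and 18.3 ± 9.33 in ICM libraries (SD, n = 3), on 104.5 reads in all. How far these reads are shared with the coding copies was not tested.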

How the results depend on the processing

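Recomputed under the alternatives, 404 member log2 changes kept their direction and side of the threshold and 27 lost their call. The 3 that changed sign were uncalled: MT2A mRNA in ICM against young cells without ICM replicate 2 (0.012), in a range of -0.12 to 0.012 over the libraries left out, and the MT2A footprint ratio in ICM against old cells without ICM replicate 3 (-0.11, in a range of -0.11 to 0.50) or without the 3 lysates that hold a library standing apart (-0.081). Members called in mRNA numbered 4 in old against young cells, 2 in ICM against young cells and 5 in ICM against old cells. With 3′ UTR reads alone these counts were 1, 0 and 1, and with 5′ UTR reads alone, chosen after seeing the data, 2, 1 and 3, where fewer members have reads. With DESeq2 and with a mean of at least 50 counts ICM against young cells gave 1, and with no filter 3, MT1F being added. The summed mRNA level moved beyond its SD with CDS reads alone (166, 423 and 143 CPM in young, old and ICM cells) and with 3′ UTR reads alone (7.79, 16.2 and 5.02), as fewer reads are counted, and old cells were highest in both. Of its other recomputed values in both assays, 18 stayed within it.

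The 2 members called in Ribo-seq became, in old against young cells, 1 with DESeq2 and with a mean of at least 50 counts and 0 when libraries were thinned to the shallowest. In ICM against old cells they became 1 with RLE size factors, all transcript regions, a mean of at least 50 counts or the compared states alone, and 0 with DESeq2 or thinning. Leaving out 1 library in turn gave 0 to 2 in ICM against old, 1 to 2 in old against young and 0 to 0 in ICM against young cells in Ribo-seq, and 5 to 5, 4 to 4 and 1 to 2 in mRNA-seq. The cause of these losses was not tested beyond the fewer genes or reads that a filter or thinning leaves.

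With a replicate block the Ribo-seq counts were 1 in old against young cells (MT1G kept) and 1 in ICM against old cells (MT2A kept), and the mRNA-seq counts did not move. Same-numbered libraries of different states correlated at -0.135 to 0.157 in mRNA-seq and 0.00441 to 0.0393 in Ribo-seq. The mRNA-seq and Ribo-seq libraries of the same lysate, which do share material, correlated at only -0.0467 to 0.0593. Such correlations therefore cannot show whether same-numbered libraries share more than a number. Ribo-seq depth limits all members, MT2A included, whose calls were lost on thinning.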

Other observations

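MT1JP, which also had reads in the pseudogene column, averaged 3.87 ± 0.726 CPM in young, 5.69 ± 1.08 in old and 2.23 ± 0.476 in ICM mRNA-seq libraries (SD, n = 3). MT1E had 34.0 of its 74.7 footprints in the 5′ UTR, of which 18 were in young replicate 3 and 11 in old replicate 1. MT2A had 74.0 of 1636 footprints there, 56.0 of them in old replicate 1.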
